A study of Heterocephalus glaber with 2 samples.

Results

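The insulin-like growth factor (IGF) system was examined in skin fibroblasts of the naked mole-rat (NSFs), through the genes of its ligands (*Igf1*, *Igf2*), its receptors (*Igf1r*, *Igf2r*) and 6 of its binding proteins (*Igfbp2* to *Igfbp7*). These 10 genes were taken by their symbols from the 37520 entries of the RNA-seq tables, and each symbol had a single entry in both. The comparison asked how β-catenin knockdown alters the transcriptome of NSFs. The cells were primary fibroblasts from adult animals, kept in medium with fetal bovine serum at low oxygen, transduced with a lentiviral vector and selected with puromycin. β-catenin-knockdown NSFs carried a short hairpin RNA against β-catenin, a single hairpin design, and control-knockdown NSFs carried the empty vector without a hairpin. RNA of each culture was sequenced as 1 library, so there is no replicate error and no difference below was tested.

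IGF1 and IGF2 are secreted growth factors that act on the receptor tyrosine kinase IGF1R and, through it, on the PI3K-AKT and MAP kinase pathways. IGF2R, the cation-independent mannose 6-phosphate receptor, does not pass on this signal but takes up IGF2 for breakdown and sorts lysosomal enzymes. IGFBPs hold IGFs in the extracellular space, where they can block or prolong their action, and proteases free the IGFs again. Fibroblasts are a major source of IGFBPs in connective tissue, and human fibroblasts that become senescent are known to secrete several of them, IGFBP3, IGFBP5 and IGFBP7 included.

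Expression is given in FPKM, the fragments scaled to the exon length of a gene and to all mapped fragments of a library, which can be compared between genes. The targeted gene, *Ctnnb1*, stood at 69.0 FPKM in β-catenin-knockdown NSFs, against 530 FPKM in control-knockdown NSFs, the direction that the labels give. The FPKM values summed to 591905 in the knockdown and 609786 in the control library, and 13097 genes had a mean FPKM of 1 or more. Low genes gave a relative depth of 1.20 for the control over the knockdown library, while total fragments are not given. Of the fibroblast genes, *Col1a1*, a collagen chain, was abundant at 856 FPKM in knockdown and 1258 FPKM in control cells, as was *Vim*, the intermediate filament vimentin, at 2804 FPKM in knockdown and 3363 FPKM in control cells. *Dcn*, the proteoglycan decorin, was low, at 2.42 FPKM in knockdown and 0.316 FPKM in control cells.

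The ligand genes were at or near 0. *Igf1* was listed at 0 in β-catenin-knockdown NSFs and at 0 in control-knockdown NSFs. A listed 0 does not show absence, since *Ywhaz*, a gene that nearly all cells use, was also listed at 0 in both. *Igf2* was listed at 0.0902 FPKM in knockdown and 0.125 FPKM in control cells. Its ratio of 0.721 lay within 0.0031% of that of 3 fragments in the knockdown to 5 in the control library. This missed the tolerance of 0.002% first used, which was then widened, so these numbers are assumed and not established. The exact Clopper-Pearson 95% interval at these numbers ran from 0.112 to 3.71. Any multiple of these numbers fits the ratio equally, and at 9 and 15 fragments the interval was 0.278 to 1.76. At these fragment numbers a difference in *Igf2* could not be told from counting error. Larger multiples were not examined. These intervals cover counting error only.

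Both receptor genes were higher in β-catenin-knockdown NSFs, by less than 2-fold. *Igf1r* was listed at 16.7 FPKM in knockdown and 11.3 FPKM in control cells, a 1.48-fold higher value. *Igf2r* was listed at 102 FPKM in knockdown and 76.0 FPKM in control cells, 1.35-fold higher. The level of *Igf2r* was thus 6.13 times that of *Igf1r* in the knockdown library and 6.75 times in the control library. With 0.1 FPKM added to each value, the log2 difference was 0.56 for *Igf1r* and 0.43 for *Igf2r*, where the median of the 13097 genes was −0.01. On this scale *Igf1r* stood above 91.3% of these genes and *Igf2r* above 87.5%.

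**Figure D1:**
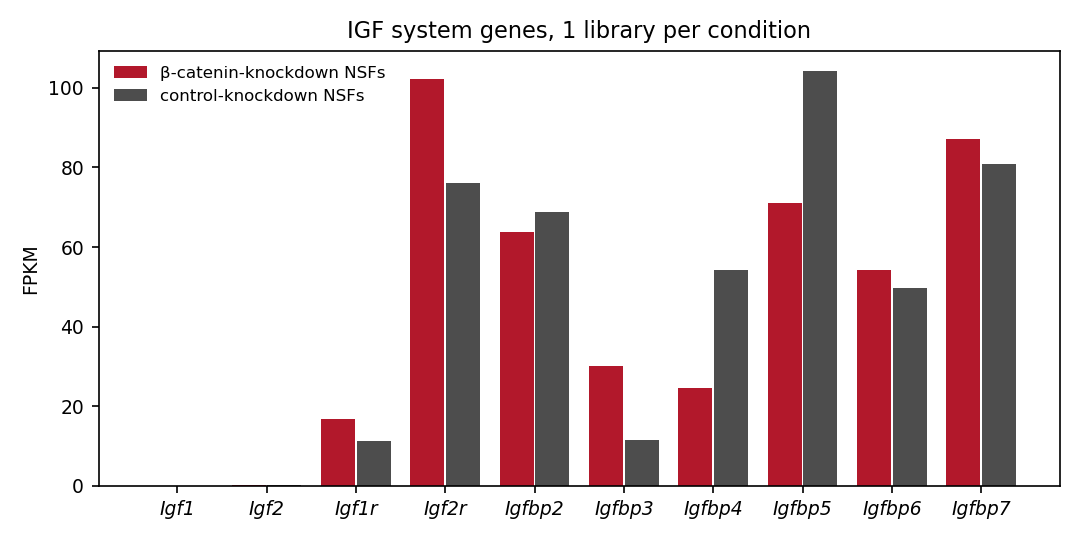
FPKM (vertical axis) of the 10 IGF system genes in β-catenin-knockdown (red, left bar) and control-knockdown NSFs (grey, right bar), 1 library each and so without error bars. *Igf1* and *Igf2* are at or near 0, *Igfbp3* is higher (30.1 FPKM in knockdown, 11.4 FPKM in control cells) and *Igfbp4* lower (24.5 FPKM in knockdown, 54.1 FPKM in control cells).

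All 6 binding protein genes were expressed, and 3 of them were higher and 3 lower in β-catenin-knockdown NSFs. *Igfbp3*, whose protein carries most IGF in the blood, was listed at 30.1 FPKM in knockdown cells, against 11.4 FPKM in control cells. This 2.64-fold higher value (log2 difference 1.39) was the highest among the 10 genes, and 202 of the 13097 genes had a higher one. *Igfbp4*, a binding protein best known for inhibiting IGF action, was listed at 24.5 FPKM in knockdown cells, against 54.1 FPKM in control cells. It was 2.21-fold lower (log2 difference −1.14), with 184 of the 13097 genes lower still. *Igfbp3* stood at 1.23 times the level of *Igfbp4* in the knockdown library, and at 0.211 times in the control library.

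*Igfbp5*, which also binds the extracellular matrix, was listed at 70.9 FPKM in knockdown and 104 FPKM in control cells, a 1.47-fold lower value (log2 difference −0.55). *Igfbp2*, its neighbour in mammalian genomes, was listed at 63.9 FPKM in knockdown and 68.7 FPKM in control cells (log2 difference −0.11). The remaining genes differed little. *Igfbp6*, which prefers IGF2 to IGF1, was listed at 54.2 FPKM in knockdown and 49.7 FPKM in control cells, and *Igfbp7*, a binding protein of low affinity for IGFs, at 87.2 FPKM in knockdown and 80.8 FPKM in control cells. Their log2 differences were 0.13 and 0.11.

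Of the 8 genes with a mean of 1 FPKM or more, 1 was more than 2-fold higher (*Igfbp3*) and 1 more than 2-fold lower (*Igfbp4*) in the knockdown library. Among all 13097 genes, 3.27% were more than 2-fold higher and 2.05% more than 2-fold lower. Here and below, 2-fold and 4-fold are thresholds on the log2 scale with 0.1 FPKM added. None of the 8 passed 4-fold on this scale, which 0.68% of all genes passed upward and 0.206% downward. The study's methods also use 4-fold, but on plain folds without the added 0.1 FPKM. Its lists include genes below the filter used here, such as *Thy1*. The median log2 difference of the 8 genes was 0.12, with 5 higher and 3 lower. *Igf1* and *Igf2* did not reach the filter.

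**Figure D2:**
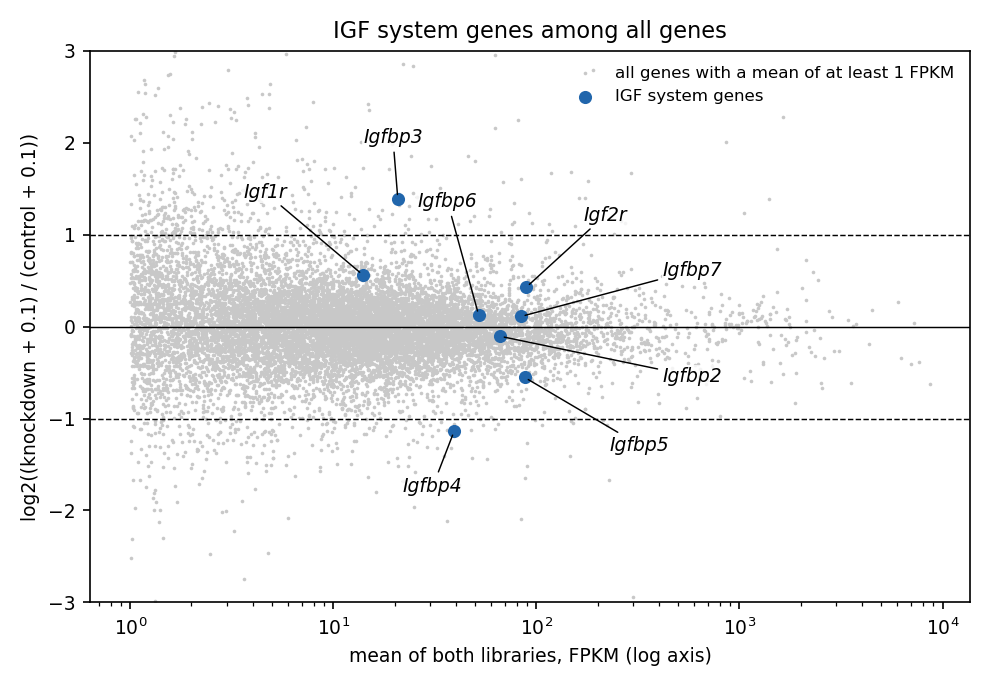
Log2 of the FPKM ratio of β-catenin-knockdown to control-knockdown NSFs, with 0.1 FPKM added to each value (vertical axis), against the mean FPKM of both libraries (horizontal log axis), for 13097 genes (grey) and the 8 IGF system genes that passed the filter (blue). Dashed lines mark 2-fold, which *Igfbp3* (1.39) and *Igfbp4* (−1.14) pass, and 40 genes lie beyond the vertical axis.

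The order of the members by level differed between the libraries. *Igf2r* was highest in β-catenin-knockdown NSFs, followed by *Igfbp7*, *Igfbp5*, *Igfbp2* and *Igfbp6*. In control-knockdown NSFs *Igfbp5* was highest, followed by *Igfbp7*, *Igf2r*, *Igfbp2* and *Igfbp4*. By their mean over both libraries, *Igf2r*, *Igfbp5* and *Igfbp7* stood above 92.4%, 92.3% and 91.9% of the 13097 genes. *Igf1r*, the lowest of the 8, stood above 56.8%. Without replicates it cannot be said which neighbours in these orders differ beyond the spread between cultures.

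The summed level of the 6 binding protein genes was 331 FPKM in β-catenin-knockdown and 369 FPKM in control-knockdown NSFs, 1.11-fold lower in the knockdown. Without *Igfbp5* the sum was 260 FPKM in knockdown and 265 FPKM in control cells. The make-up of the sum differed more than its size. *Igfbp3* made up 9.10% of it in knockdown and 3.10% in control cells. *Igfbp4* held 7.41% in knockdown and 14.7% in control cells, and *Igfbp5* 21.4% in knockdown and 28.2% in control cells. *Igfbp7* held 26.4% in the knockdown library, where it was the largest share, and 21.9% in the control library.

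**Figure D3:**
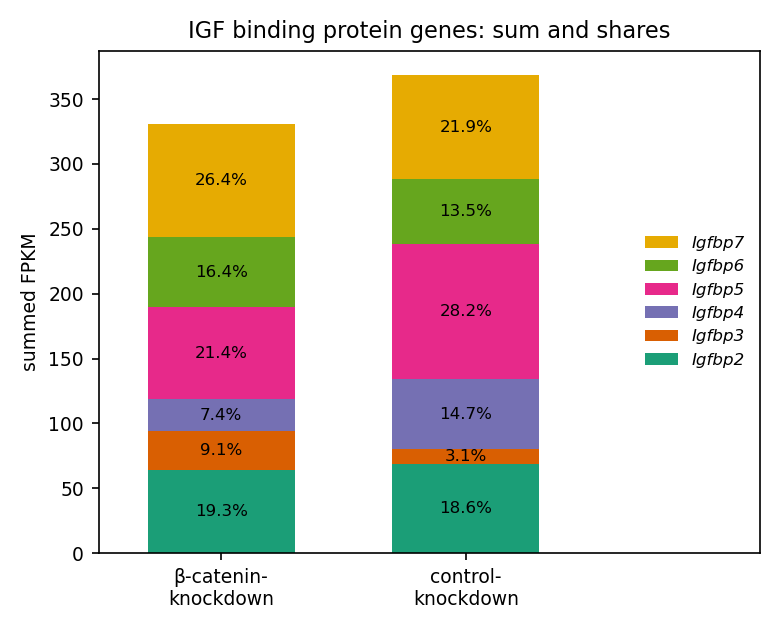
Summed FPKM (vertical axis) of 6 IGF binding protein genes in the β-catenin-knockdown (left) and control-knockdown library (right), with the share of each gene printed in its segment. The sum is 331 FPKM in the knockdown and 369 FPKM in the control library, and *Igfbp4* and *Igfbp5* hold smaller shares and *Igfbp3* a larger share in the knockdown library.

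The fragments behind the higher genes are not known. As a rough guide to counting error, 1 fragment was taken to be worth 0.373 FPKM in the knockdown library, the 95th percentile among low genes, which gives few fragments. This value was used for every gene whatever its length, so the intervals of long transcripts may be too wide. *Igfbp3* would then rest on 81 fragments in the knockdown and 37 in the control library, with an exact 95% interval of the ratio of 1.76 to 3.996. For *Igfbp4* the interval was 0.336 to 0.605, for *Igfbp5* 0.566 to 0.815 and for *Igf2r* 1.13 to 1.61. The intervals of *Igf1r* (0.948 to 2.40), *Igfbp2* (0.754 to 1.14), *Igfbp6* (0.864 to 1.37) and *Igfbp7* (0.900 to 1.29) included 1. They say nothing of the spread between cultures.

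Genes that act with the IGF system showed both directions. The list of IGFBP proteases and their inhibitors held 16 genes, *Pamr1* included, and 11 had a mean of 1 FPKM or more. Their median log2 difference was −0.0062, with *Pamr1* the only gene past 2-fold upward and 2 genes past 2-fold downward. Both of the latter encode proteases. *Plau*, the urokinase, was listed at 22.2 FPKM in knockdown and 45.5 FPKM in control cells, and *Adam12*, a metalloprotease that cleaves IGFBP3 and IGFBP5, at 34.9 FPKM in knockdown and 70.2 FPKM in control cells. *Pamr1* is a peptidase-like gene of muscle regeneration whose protein is not established as an IGFBP protease. It was listed at 38.7 FPKM in knockdown and 5.28 FPKM in control cells. Apart from *Pamr1*, no gene of the list with a mean of 1 FPKM or more was past 2-fold upward. *Mmp2*, a gelatinase, had the highest level of the list, at 2652 FPKM in knockdown and 1603 FPKM in control cells. *Pappa*, the main protease of IGFBP4, was listed at 22.1 FPKM in knockdown and 25.9 FPKM in control cells, and *Stc2*, its inhibitor, at 10.8 FPKM in both. The level of *Pappa* was 0.900 times that of *Igfbp4* in the knockdown library and 0.478 times in the control library.

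Further genes of the IGF axis held 4 of 11 with a mean of 1 FPKM or more, 2 higher and 2 lower, and none past 2-fold (median 0.18). *Kazald1*, a secreted protein with an IGFBP-like domain, was listed at 15.0 FPKM in knockdown and 7.48 FPKM in control cells. It missed the threshold (log2 difference 0.997) only through the added 0.1 FPKM, since its plain ratio was 2.01. *Insr*, the insulin receptor, was listed at 2.54 FPKM in knockdown and 2.74 FPKM in control cells, and *Irs1*, an adaptor of the insulin receptor and IGF1R, at 8.55 FPKM in knockdown and 10.9 FPKM in control cells. *Igfbp1*, the neighbour of *Igfbp3*, was listed at 0 in both libraries, as was *Ins*. In the CCN family, whose proteins share a domain with IGFBPs, none of 5 genes passed 2-fold (median 0.05), although *Ccn5*, entered as *Wisp2*, was 2.005-fold lower by its plain ratio, at 6.51 FPKM in knockdown and 13.1 FPKM in control cells. The most abundant was *Ccn1*, entered under its older symbol *Cyr61*, at 160 FPKM in knockdown and 155 FPKM in control cells. Of the genes of IGF2 mRNA binding proteins, *Igf2bp2* was listed at 8.39 FPKM in knockdown and 6.98 FPKM in control cells. *Igf2bp3* stood at 1.62 FPKM in knockdown and 1.498 FPKM in control cells, and *Igf2bp1* at 0.773 FPKM in knockdown and 0.878 FPKM in control cells.

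Signaling genes below IGF1R were close to even. Of 48 genes, 43 had a mean of 1 FPKM or more, 24 higher and 19 lower, with a median log2 difference of 0.06. *Grb14*, an adaptor that inhibits the insulin receptor, passed 2-fold, at 9.20 FPKM in knockdown and 3.34 FPKM in control cells. *Sh2b2*, another adaptor of that receptor, was listed at 1.37 FPKM in knockdown and 0.671 FPKM in control cells, a plain ratio of 2.04, and missed the threshold with 0.1 FPKM added. *Shc1*, an adaptor to the MAP kinase pathway and the most abundant of them, was listed at 125 FPKM in knockdown and 132 FPKM in control cells. Among 16 FOXO target genes, which AKT signaling holds down, 9 were higher and 7 lower (median 0.05). The lower ones include *Insr*, already counted among the further IGF axis genes. *Sod2*, the mitochondrial superoxide dismutase and also a target of NF-κB, was listed at 252 FPKM in knockdown and 95.7 FPKM in control cells, and *Sesn3*, a stress-induced regulator of mTORC1, at 3.52 FPKM in knockdown and 9.28 FPKM in control cells. Of 8 genes that respond to growth factors, 4 were higher and 4 lower (median 0.01). The higher ones include *Igf2r*, already counted among the members. *Ccnd1*, the gene of cyclin D1 and also a target of β-catenin, was more than 2-fold lower, at 141 FPKM in knockdown and 285 FPKM in control cells.

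**Figure D4:**
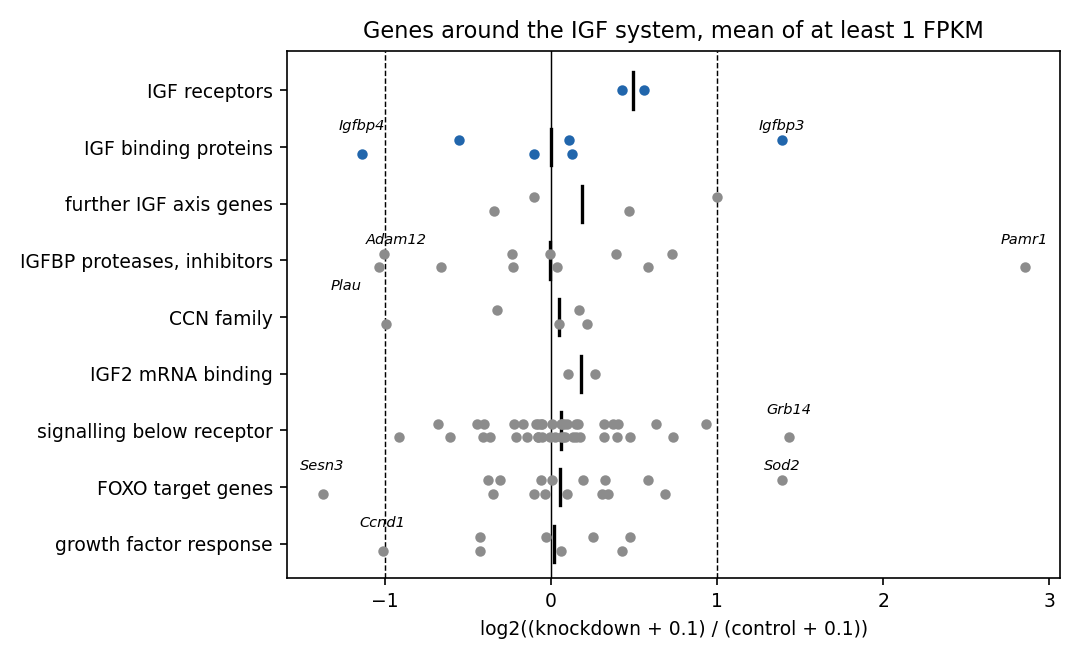
Log2 of the FPKM ratio of β-catenin-knockdown to control-knockdown NSFs, with 0.1 FPKM added to each value (horizontal axis), for the genes of 9 lists with a mean of 1 FPKM or more. Each point is a gene, black bars are list medians, dashed lines mark 2-fold, and genes past it are named. *Igf2r* and *Insr* appear in more than 1 list. The 6 IGF binding protein genes spread from −1.14 to 1.39 around a median of 0.0026. The medians of the other lists lie between −0.0062 (proteases and their inhibitors, *Pamr1* included) and 0.50 (receptors).

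Markers of cell types also differed between the libraries. Of 13 fibroblast markers with a mean of 1 FPKM or more, 10 were lower in the knockdown (median −0.56). Past 2-fold were *Dcn* and *Fap*, both higher (log2 differences 2.60 and 1.08), and *Col6a1*, which was lower (−1.07). *Dcn* passed the filter through the knockdown library alone. The filter left out *Lum* and *Thy1*, both higher in the knockdown (log2 differences 1.14 and 1.89), and without it the median was −0.36. All 15 markers summed to 7913 FPKM in knockdown and 11250 FPKM in control cells. Markers of smooth muscle and pericytes were lower in 4 of 4 (median −0.58), and all 8 summed to 2190 FPKM in knockdown and 3125 FPKM in control cells. Nearly all of this sum lay in *Tagln* and *Acta2*. *Tagln* was listed at 1576 FPKM in knockdown and 2235 FPKM in control cells. *Acta2* stood at 609 FPKM in knockdown and 881 FPKM in control cells. *Des* was listed at 0 in both, and *Myh11*, *Rgs5* and *Cspg4* were under 1 FPKM in both. Of 12 leukocyte markers, 5 passed the filter and all 5 were more than 2-fold higher (median 1.51), where 3.27% of all genes were. One of them, *Fcer1g*, passed through the knockdown library alone (1.70 FPKM in knockdown and 0.670 FPKM in control cells). Below the filter *Tyrobp* was lower (log2 difference −0.63) and *Cd79a* was listed at 0 in knockdown and 0.0856 FPKM in control cells. *Csf1r*, *Itgam* and *Adgre1*, at or near 0 in both libraries, were higher (log2 differences 0.33, 0.32 and 0.28). Without the filter the median was 0.78. All 12 summed to 238 FPKM in knockdown and 75.2 FPKM in control cells. Nearly all of this sum lay in *Lyz*, *Cd14*, *Cd68* and *Cd74*. In knockdown cells these stood at 127, 49.9, 31.1 and 28.4 FPKM, in control cells at 41.5, 17.4, 11.9 and 2.72 FPKM. *Ptprc*, a gene of leukocytes in general, and *Cd3e*, a gene of T cells, were listed at 0 in both, which does not show absence. The 10 keratinocyte markers summed to 23.6 FPKM in knockdown and 41.5 FPKM in control cells. Most of that difference lay in *Krt18*, a keratin not particular to keratinocytes, at 7.21 FPKM in knockdown and 22.6 FPKM in control cells. *Dsp* was also lower, while *Dsg3* and the 4 markers above 0 but under the filter were higher. The 10 endothelial markers summed to 5.25 FPKM in knockdown and 1.96 FPKM in control cells. Only 2 of them passed the filter, *Egfl7* and *Pecam1*, the latter through the knockdown library alone (2.08 FPKM in knockdown and 0.275 FPKM in control cells). The 7 adipocyte markers summed to 13.1 FPKM in knockdown and 6.52 FPKM in control cells. The 7 markers of skeletal muscle and liver summed to 2.51 FPKM in knockdown and 2.80 FPKM in control cells. The keratinocyte genes *Krt5* and *Krt1* and the adipocyte gene *Plin1* were listed at 0 in both. The part of these differences in the values of *Igfbp3*, *Igfbp4* and *Igfbp5* was not tested. In bulk RNA, fewer cells of a type and less RNA per cell cannot be told apart.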

How the data were processed

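RNA-seq values of 1 β-catenin-knockdown and 1 control-knockdown library of NSFs were used as deposited. The authors prepared stranded mRNA libraries and mapped paired-end reads to the naked mole-rat genome. Their processing notes name TopHat2 (2.0.13), SAMtools (0.1.19) and Bowtie2 (2.2.3), and the authors derived FPKM in Cufflinks (2.2.1). The gene annotation and the depth are not given in the sources used here. No sequences are shown.

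Differences are log2 of (knockdown + 0.1)/(control + 0.1) in FPKM, which understates low genes, and plain folds carry no pseudocount. Summaries were limited to genes whose mean FPKM was 1 or more, with thresholds of 2-fold and 4-fold. The relative depth is the most frequent ratio among 5239 genes above 0 and under 1 FPKM in both libraries. Pairs of whole fragments summing to no more than 60 were sought within 0.005%, a tolerance widened after *Igf2* was seen to miss 0.002%. They were found for 68.3% of 5649 low genes, against 1.08% with the depth shifted by 1.4%. The guide to counting error of the higher genes was added after the data were seen.

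All 10 members are named, and of each other list the genes past 2-fold and the most abundant one, except for most markers, which are given as sums. *Pappa*, *Stc2*, *Insr*, *Irs1*, *Igfbp1*, *Ins*, *Igf2bp1*, *Igf2bp3*, *Ccn5*, *Sh2b2*, *Ywhaz* and most of the markers named lie outside this rule and were picked with their values known. The members and lists were chosen with earlier results of these data known. Alternatives were pseudocounts, scalings and filters. The scripts were tested on simulated data. Scripts ran in Python 3.11.15 (scipy 1.17.1, pandas 2.3.3, numpy 2.4.6, matplotlib 3.10.9).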

Additional observations from a re-analysis of the deposited data

How the results depend on the processing

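With a pseudocount of 0.01 or 1, scaling to the median ratio (which shifts every log2 difference by 0.01) or scaling to the upper quartile (0.04), each of the 9 members above 0 kept its direction and its side of 2-fold. *Igfbp3* ranged from 1.32 to 1.43 and *Igfbp4* from −1.14 to −1.10 on the log2 scale. The counts of members past 2-fold and 4-fold were the same under these settings, without a filter, and with the filter raised to 5 FPKM, and the median of the members ranged from 0.11 to 0.15. The log2 ratio of the summed binding protein level was −0.16, and −0.026 without *Igfbp5*, the most abundant of them. Among the other lists, the median of the CCN family was −0.14 with the filter at 5 FPKM and that of keratinocyte markers was 0.24 without a filter, against −0.26 with it. Without a filter the medians were 0.78 in place of 1.51 for leukocyte, 0.75 in place of 1.596 for endothelial, 0.82 in place of 1.1502 for adipocyte and −0.36 in place of −0.56 for fibroblast markers, and 0.35 in place of 0.18 for further IGF axis genes, which were at 0.33 with the filter at 5 FPKM. The filtered medians rested on only 5 leukocyte, 2 endothelial and 3 adipocyte markers. Of the endothelial ones, *Pecam1* passed the filter through the knockdown library alone. With a pseudocount of 1 the endothelial median was 0.87 and the adipocyte median 0.90. With the filter at 5 FPKM the keratinocyte median, of *Krt18* and *Dsp* alone, was −0.95. At 6 and 10 fragments the interval of the *Igf2* ratio was 0.216 to 2.19. No paired analysis was possible because each condition has 1 library, and for the same reason no library could be left out. Depth limits *Igf2* if its fragments are as few as the smallest numbers that fit its ratio. The fragments behind the listed 0 of *Igf1* are not known.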

Other observations

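Genes next to the members were looked up by their order in the RefSeq annotation of a later assembly of the naked mole-rat genome, which was decided with the values known, and are given as values only. *Igfbp3* lies between *Tns3*, a focal adhesion protein, and *Igfbp1*. *Tns3* was listed at 11.1 FPKM in β-catenin-knockdown and 15.8 FPKM in control-knockdown NSFs (log2 difference −0.50), on the other side of 0 from *Igfbp3*. *Igfbp4* lies beside *Rdm1* and *Tns4*, the first at 8.30 FPKM in knockdown and 9.48 FPKM in control cells, the other at 0 FPKM in knockdown and 0.0241 FPKM in control cells. *Igfbp5* and *Igfbp2* are next to each other, and the ribosomal protein gene *Rpl37a* beyond *Igfbp2* was listed at 2925 FPKM in knockdown and 2606 FPKM in control cells. On the far side of *Igf2* from *Ins*, *Mrpl23*, a mitochondrial ribosomal protein, was listed at 72.3 FPKM in knockdown and 84.9 FPKM in control cells, while *Igf2* itself was near 0.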
